A study of Mus musculus with 4 samples.

Results

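Integrin subunit genes were examined for nearby binding of MIXL1, a homeodomain factor of the paired type that marks the primitive streak, carrying a FLAG tag. The set holds 10 genes, Itga1, Itga2, Itga3, Itga4, Itga5, Itga6, Itga8, Itga9, Itgav and Itgb1, out of 21523 protein-coding genes and out of 26 integrin subunit genes. The members were chosen by the presence of peaks, since many Itga genes had shown one in an earlier look at the same list, so having a peak is described here without a test. Peaks were taken as belonging to a gene when they lay inside its span, from the first to the last annotated base, or within 100 kb of it. By this rule the members held 15 of the 9598 peaks of the series.

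The chromatin came from mouse epiblast stem cells, pluripotent cells in culture that resemble the epiblast of the implanted embryo, carrying an inducible FLAG-Mixl1 gene. Irradiated mouse embryonic fibroblasts served as feeders, and the medium held activin A at 20 ng/mL and bFGF at 10 ng/mL. Embryoid bodies were then made and kept in serum for 2 days, and doxycycline at 1 µg/mL was added over the final 24 h to induce Mixl1. There were 2 libraries of chromatin precipitated with the anti-FLAG M2 antibody and 2 libraries of input chromatin, and doxycycline had been given in both groups. Which promoter drives the inducible gene, and how many lines were used, is not given in the sources used here. Cells without doxycycline were not analysed here. The series enters as a single list of peak positions without height, score or p-value, so no value below has a replicate error and the depth of the libraries is unknown. A list of positions holds no expression, so the identity of the cells could not be checked against marker genes.

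Integrins are receptors of the cell surface built from 1 alpha and 1 beta subunit, which hold cells to the extracellular matrix or to other cells and couple that contact to the actin cytoskeleton. The beta1 subunit, encoded by Itgb1, pairs with each of the alpha subunits encoded by the other members. In the gastrula, cells that leave the epiblast at the primitive streak move over a basement membrane and a fibronectin matrix that these receptors recognise. Homeodomain proteins of the paired type bind the core TAAT and, as dimers, sites in which this core faces its reverse complement across a short spacer.

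Sequence under the 15 peaks was not used here, as no genome was given. The nearest available sequence is the RefSeq promoter table, whose build GRCm38.p6 has the coordinates of mm10, with 250 bases before to 50 bases after each listed start. It matched 9 of the 10 members with 10 windows, and Itga6 had no entry. None of these windows was overlapped by a peak, against 1.38% of all 32851 windows. The core TAAT, searched on both strands, stood in 2 of the 10 windows (20%), those of Itga5 and Itga8, against 58.0% of all windows and 42.9% of windows whose GC content lay in the range of the members, 52.3 to 67.3%. Among the other integrin subunit genes, 9 of which had a window, it stood in 7 of 10 windows (70%). Those windows had a median GC content of 53.5%, against 59.2% for the members, so the 2 shares are not matched for GC. Among windows that a peak overlapped the core stood in 72.6%. The dimer sites searched were TAAT followed by ATTA after 2 or after 3 bases of any kind, which read the same on both strands and contain the core. Neither was found in a member's window, and they were rare elsewhere, in 0.39% and 0.487% of all windows. The listed start of Itga9 lies inside its span, so that window is not at the outer end of the gene. The 250 bases before the start are shown for Itga5, whose peak lay closer to the gene's 5′ end than that of any other member with a known strand, and for Itga8, the other member with a core. They are shown also for Lamb2, which encodes a laminin beta chain. Among the genes of the ligand, adaptor and integrin lists that had a window, it was the only one whose window a peak overlapped. Other genes of these lists, among them Fn1 and Tln2, had no entry in the promoter table and could not be looked at. Capitals mark TAAT or its reverse complement ATTA, and the sequences run 5′ to 3′ along the gene (Itga5, chr15:103366792-103367041, minus strand; Itga8, chr2:12301945-12302194, minus strand; Lamb2, chr9:108479612-108479861, plus strand).
Itga5: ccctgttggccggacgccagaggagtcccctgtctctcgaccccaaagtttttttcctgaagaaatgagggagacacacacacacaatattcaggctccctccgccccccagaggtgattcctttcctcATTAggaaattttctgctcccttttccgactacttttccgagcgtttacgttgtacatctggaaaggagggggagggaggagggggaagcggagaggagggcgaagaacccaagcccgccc
Itga8: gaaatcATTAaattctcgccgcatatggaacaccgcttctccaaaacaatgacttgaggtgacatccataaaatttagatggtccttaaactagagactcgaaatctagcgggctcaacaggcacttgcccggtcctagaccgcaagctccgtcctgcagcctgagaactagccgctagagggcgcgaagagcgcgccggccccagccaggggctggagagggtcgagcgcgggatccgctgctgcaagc
Lamb2: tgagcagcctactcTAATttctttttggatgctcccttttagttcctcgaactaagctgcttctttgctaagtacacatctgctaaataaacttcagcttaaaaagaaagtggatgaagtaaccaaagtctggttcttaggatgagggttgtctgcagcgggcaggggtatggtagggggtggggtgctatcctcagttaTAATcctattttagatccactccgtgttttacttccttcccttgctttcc
The Itga5 stretch has 1 core and lies 1.53 kb from the peak inside that gene. The Itga8 stretch has 1 core and lies 37.6 kb from the nearer peak inside that gene. In the Lamb2 stretch the last 204 of the 250 bases lay under a peak (chr9:108479658-108479934). This stretch has 2 cores, the first of them before the start of the peak and only the second under it. A match to these letters is a description and does not show that the protein bound there.

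All 10 members had at least 1 peak in or within 100 kb of the gene, where 52.8% of all protein-coding genes did. Because long genes have more room for peaks, the members were also set beside the 8661 protein-coding genes whose span lay between that of the shortest member, Itga5 at 22.5 kb, and the longest, Itga9 at 294 kb, and 58.3% of these had a peak. Itga6 had 3 peaks, Itga3, Itga8 and Itgav had 2 each, and the other 6 members had 1 each. A peak overlapped the span of 4 members (Itga1, Itga5, Itga8 and Itga9), against 12.6% of all protein-coding genes and 21.3% of those in the span range. The median distance from a member to its nearest peak was 4.33 kb, counting an overlap as 0, where the median over all protein-coding genes was 89.3 kb and over those in the span range 67.8 kb. With a limit of 50 kb, 9 of 10 members had a peak, against 37.5% of all protein-coding genes and 44.2% of those in the span range, and with 200 kb all 10 did, against 70.3% and 74.6%. Since the members were chosen for having peaks, nothing is read from these differences.

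**Figure D1:**
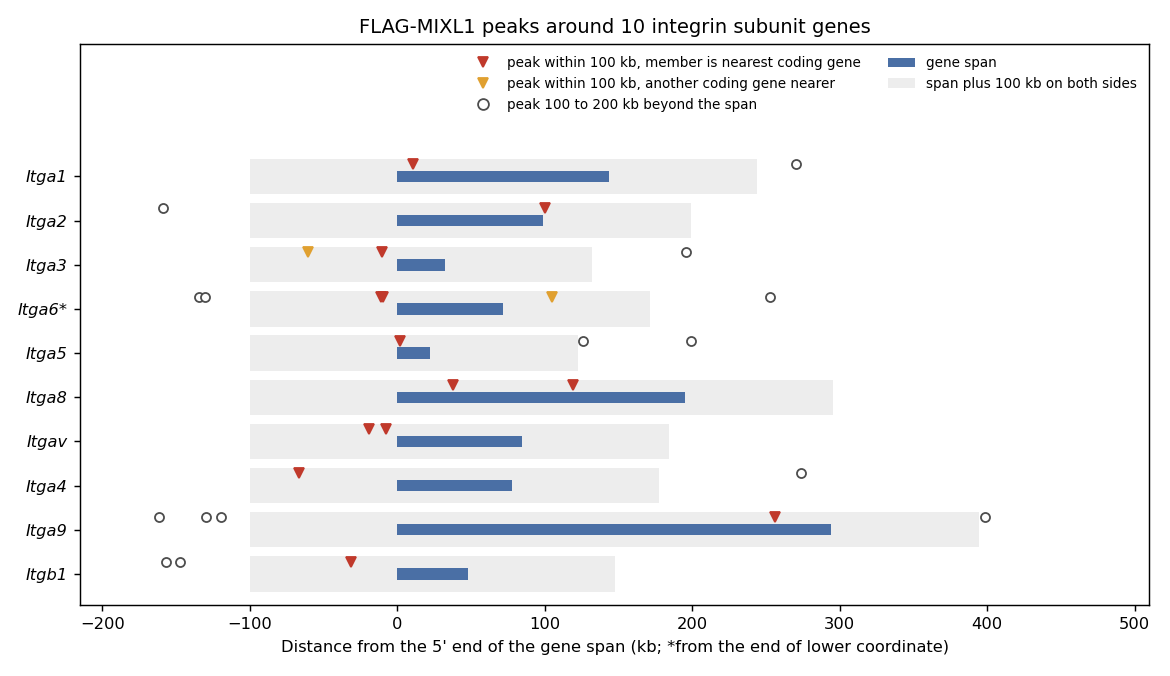
Position of FLAG-MIXL1 peaks around the 10 integrin genes, with the distance from the 5′ end of the gene span in kb on the x axis (for Itga6, from the end of lower coordinate) and 1 row per gene. Of the 15 peaks within 100 kb (triangles), 5 lay inside a gene span (blue bars), and each of the 15 open circles, at 100 to 200 kb, was nearer to another protein-coding gene. The circles of Itga1 and Itga2 are the peak of the other gene of this pair.

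The collagen receptors come first. Itga1 and Itga2 encode alpha subunits that carry an inserted ligand-binding domain and pair with beta1, and the genes lie side by side on chromosome 13, 26 kb apart. Itga1 (chr13:114958079-115101964) had 1 peak inside its span, at chr13:115090820-115091325, 10.9 kb from the 5′ end or 7.57% of the way along the gene. This peak was 506 bp wide and also lay 0.662 kb from Pelo, a gene inside the span of Itga1. Itga2 (chr13:114833081-114932100) had 1 peak of 281 bp at chr13:114831430-114831710, 1.37 kb beyond the 3′ end and 2.01 kb from Mocs2. Although the genes are neighbours they shared no peak, and the 2 peaks lay 259 kb apart with none between them. On chromosome 13, 43.9% of protein-coding genes had a peak within 100 kb. On the chromosomes of the other members this share ran from 44.9% on chromosome 2 to 66.1% on chromosome 11.

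Among the laminin receptors, Itga3 and Itga6 had peaks outside the gene and none inside it. Itga3 (chr11:95044475-95076844) had a peak of 258 bp 10.4 kb upstream, at chr11:95087286-95087543. Its other peak, of 700 bp at chr11:95137138-95137837, lay 60.3 kb upstream but only 2.61 kb from Dlx4, a distal-less homeobox gene, and overlapped the long non-coding gene Gm38659. Itga6 (chr2:71786886-71858427), which encodes the alpha subunit that pairs with beta1 or beta4 in laminin receptors, had a pair of peaks 1.32 kb apart on its side of lower coordinate. They lay at chr2:71775392-71775809 and chr2:71777131-71777882, 11.1 and 9.0 kb from the span and 418 and 752 bp wide, and the second was the widest of the 15. The third Itga6 peak, at chr2:71891472-71891976, lay 33.0 kb from the other end and inside Pdk1, a kinase gene of pyruvate metabolism. The peaks near Dlx4 and inside Pdk1 were the only 2 of the 15 for which a gene other than the member was the nearest protein-coding gene.

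The receptors for the RGD tripeptide found in fibronectin and vitronectin differed in where their peaks lay. Itga5 (chr15:103344286-103366791), which encodes the alpha subunit of the main fibronectin receptor, had a single narrow peak of 252 bp inside its span at chr15:103365009-103365260. Its centre lay 1.66 kb from the 5′ end, the smallest such distance among the 9 members with a strand in the promoter table. Itga8 (chr2:12106632-12301985), whose product binds nephronectin and fibronectin, had 2 peaks inside its span and none beside it. They lay 37.8 and 119 kb from the 5′ end, at chr2:12264081-12264389 and chr2:12182408-12182890, with 81.2 kb between them. Itgav (chr2:83722303-83806917), which encodes the alpha subunit of vitronectin receptors, had no peak inside but 2 upstream, at chr2:83714771-83715011 and chr2:83703329-83703678. These were 7.29 and 18.6 kb from the span and 241 and 350 bp wide, the first of them the narrowest of the 15.

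Itga4 and Itga9 encode closely related alpha subunits that bind matrix proteins and VCAM1. Itga4 (chr2:79255426-79333114) had 1 peak of 327 bp, at chr2:79188791-79189117, 66.3 kb upstream. This was the greatest distance to a nearest peak among the members, and 43.2% of protein-coding genes had a peak as near or nearer. No other protein-coding gene lay within 100 kb of that peak. Itga9 (chr9:118606709-118901003) had 1 peak of 383 bp inside its span, at chr9:118862724-118863106, 256 kb from the outer 5′ end of the span, or 87.1% of the way along it, but 151 kb from the window at the start that the promoter table lists. The T-box gene Eomes, which is needed for definitive endoderm, lies 121 kb from Itga9, and 3 peaks nearest to Eomes lay 119, 129 and 161 kb from Itga9, outside the limit.

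Itgb1 (chr8:128685654-128733579), which encodes the shared beta1 subunit, had 1 peak of 573 bp 30.8 kb upstream, at chr8:128654261-128654833. No other protein-coding gene lay within 100 kb of it, and the next, the neuropilin gene Nrp1, was 149 kb away. Another 2 peaks lay 147 and 156 kb upstream of Itgb1 and were nearer to Nrp1, at 32.7 and 23.1 kb.

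By strand, known for 9 members, 6 of their peaks lay upstream, 5 inside and 1 downstream, and the 3 peaks of Itga6 were not classed. For 13 of the 15 peaks the member was the nearest protein-coding gene, and 8 of these lay beyond the gene span. The matching shares over all peaks are not given here, so no preference for a side or for the nearest gene is read from these counts. Every member was the nearest protein-coding gene of at least 1 peak, against 22.1% of all protein-coding genes and 31.4% of those in the span range. The peaks had a median of 2 protein-coding genes within 100 kb, from 1 to 7, and the median over all peaks was also 2. At the limit of 100 kb, the farthest peaks inside it were those of Itga4 at 66.3 kb and Itga3 at 60.3 kb, and the first outside it lay 103 kb from Itga5 and 104 kb from Itga9, inside Hnrnpa1 and Ctdspl.

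**Figure D2:**
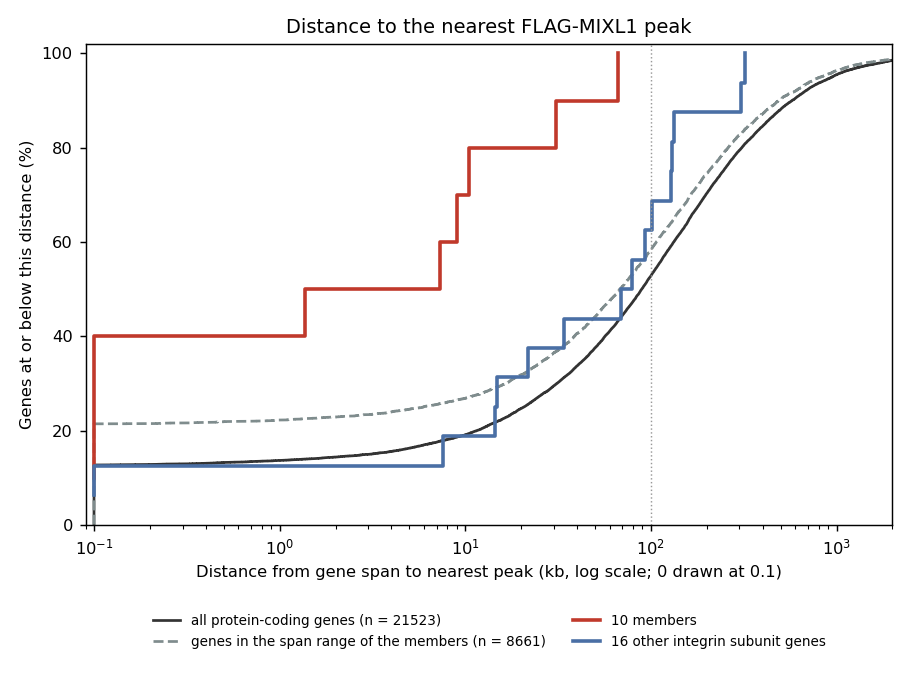
Cumulative share of genes (y axis, %) by distance from the gene span to the nearest peak (x axis, kb on a log scale, with overlaps drawn at 0.1) for the 10 members, the 16 other integrin subunit genes, all 21523 protein-coding genes and the 8661 in the span range. The members, which were chosen for their peaks, stand left of the other curves, while the other subunit genes reach 62.5% at 100 kb (dotted line).

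The integrin genes outside the set are what remained after Itga genes with peaks had been picked. Their shares depend on that choice and are given as a description. Of the other 16 subunit genes, 9 of them alpha and 7 beta, 10 (62.5%) had a peak within 100 kb, against 52.8% of all protein-coding genes and 58.3% of those in the span range. Only 2 of the 16 (12.5%) were overlapped by a peak, Itgb5 and Itgb3, against 12.6% of all protein-coding genes and 21.3% of those in the span range. Of the 16, 3 (18.8%), Itgb5, Itgb3 and Itgb6, were the nearest protein-coding gene of a peak, against 22.1% and 31.4%. Their median distance to a peak was 74.2 kb. Itgb5, which encodes a beta partner of alphav, had 6 peaks within 100 kb, more than any member, and 2 of them inside, as many as Itga8. Itga10, a further collagen receptor gene, Itgae and Itgad had 3 peaks each, and the nearest lay 14.7, 21.8 and 14.4 kb away. Peaks within 100 kb were absent at 6 subunit genes, Itgam, Itga11, Itgb2, Itga7, Itga2b and Itgb8, of which Itgam missed the limit at 101 kb. Over all 26 subunit genes, the members included, 20 (76.9%) had a peak, 14 of 18 alpha and 6 of 8 beta. Itgbl1, an integrin beta-like gene that encodes no subunit, had its nearest peak at 216 kb.

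Inside the cell, integrins act through adaptor proteins and kinases, and 20 of 25 such genes (80%) had a peak within 100 kb, against 52.8% of all protein-coding genes and 58.3% of those in the span range. A peak overlapped 9 of them (36%), against 12.6% of all protein-coding genes and 21.3% of those in the span range. This list, like the members, was chosen with earlier results of these data known, so nothing is read from these differences. Their spans had a median of 71.5 kb, between the 81.2 kb of the members and the 50.2 kb of genes in the span range. Tln2, which encodes a talin that links beta subunits to actin, had 5 peaks in a span of 417 kb. Parva, which encodes a parvin of the complex with integrin-linked kinase, had 4 of its 5 peaks inside the gene, and the tyrosine kinase gene Src had 1 of 6. Actn1, which encodes an actin-crosslinking alpha-actinin, had 17 peaks. It lies on chromosome 12, which held 16.4% of the peaks but 3.15% of protein-coding genes, and without that chromosome 51.6% of protein-coding genes had a peak within 100 kb. The other genes overlapped by a peak were Tns1, Actn4, Tns3, Ptk2b and Parvg. The Parvg peak also lay within 100 kb of the neighbouring Parvb, so these genes do not count as separate loci. No peak lay within 100 kb of 5 genes, Tln1, Lims1, Ptk2, Lims2 and Flna, and the focal adhesion kinase gene Ptk2 was the farthest at 515 kb.

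Of 24 genes for ligands and basement membrane proteins, 16 (66.7%) had a peak within 100 kb, against 52.8% of all protein-coding genes and 58.3% of those in the span range. A peak overlapped 6 of them (25%), against 12.6% and 21.3%. The ligand list too was chosen with earlier results of these data known, and no difference is read from these shares. Fn1, which encodes fibronectin, the ligand of the receptor formed by alpha5 and beta1, had 3 peaks, 1 of them overlapping the gene. Lamc1 and Lamb2, which encode laminin chains, also had 3 each with 1 overlapping, and Col4a1, for a collagen IV chain, had 2 inside. Col4a2, its neighbour, had 4 within 100 kb and none inside. The spans of Col4a1 and Col4a2 overlap, so these genes do not count as separate loci. Hspg2, for perlecan, and Nid2, for a nidogen, had 1 each, inside the gene. Among the 8 genes without a peak within 100 kb were Lama1, for a laminin alpha chain of early basement membranes, at 182 kb, Vcam1, a ligand of the receptors made with alpha4 and alpha9, at 239 kb, and Npnt, which encodes the alpha8 ligand nephronectin, at 401 kb. Thbs1, Tnc, Col1a2, Lama2 and Lama4 were the other 5.

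**Figure D3:**
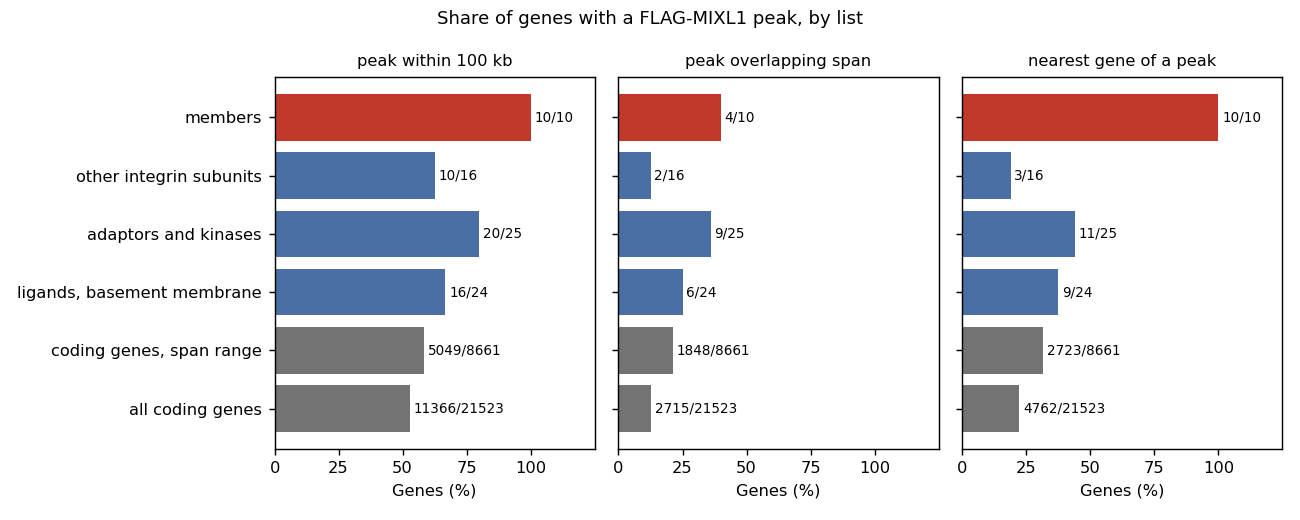
Share of genes (x axis, %) with a peak within 100 kb, with a peak overlapping the span, and that are the nearest protein-coding gene of a peak, for the members, the other integrin subunit genes, the adaptor and ligand lists and the protein-coding background, with counts beside the bars. The members were chosen for having peaks, and the lists with earlier results of these data known. The other integrin subunits stand at 10 of 16, 2 of 16 and 3 of 16, beside 52.8%, 12.6% and 22.1% of all protein-coding genes.

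The width and spacing of the peaks were not part of how the genes were chosen. The 15 member peaks were mostly narrow, from 241 to 752 bp with a median of 383 bp, where the 9403 peaks on assembled chromosomes had a median of 485 bp. Only 5 of the 15 were wider than that median, those of Itga1 and Itgb1, the outer Itga3 peak and 2 of Itga6. None reached 1 kb, as 1175 of the 9403 did. The widths over all peaks include chromosome 12 and 1-Mb windows of 20 or more peaks, where no member peak lay. Widths without these are not given here. The 22 peaks near the other integrin subunits had a median of 405.5 bp, and those near adaptor and ligand genes 463 and 403.5 bp. With the wider 50% of the peaks only, 4 of the 10 members had a peak within 100 kb, against 32.2% of all protein-coding genes and 37.3% of those in the span range. With the narrower 50%, 8 of 10 did, against 38.4% and 41.7%. Itga6 and Itga3 had peaks of both kinds. Since the members were chosen for having peaks, nothing is read from how these counts differ from the shares over all genes. The list has no peak height, so whether the narrow peaks were also weak cannot be read from it.

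**Figure D4:**
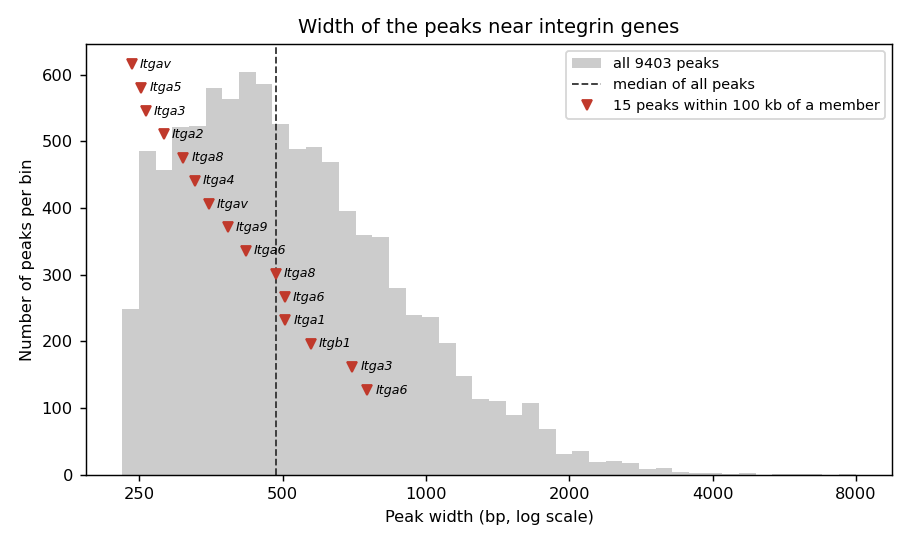
Width of the 15 peaks within 100 kb of a member (triangles, labelled by gene, height without meaning) over the widths of all 9403 peaks on assembled chromosomes (grey bars, number per bin), on a log axis in bp. The member peaks run from 241 to 752 bp, and 10 of them lie left of the median of 485 bp (dashed line).

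Most member peaks also stood alone. Another peak lay within 10 kb of 2 of the 15 (13.3%), the Itga6 pair, against 30.3% of all peaks, and within 50 kb of 6 (40%) against 58.3%. The median distance to the next peak was 81.2 kb, against 34.3 kb over all peaks. No member lay on chromosome 12, and none of the 15 peaks fell in a 1-Mb window with 20 or more peaks. The values over all peaks include chromosome 12, with 16.4% of the peaks, and such dense windows, outside which 7896 of the 9403 peaks lay. Spacing over all peaks without them is not given here. Such widths and spacings describe 15 peaks of 1 list, and were not tested.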

How the data were processed

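The data were FLAG-MIXL1 ChIP-seq of 2 precipitated and 2 input libraries, deposited by the authors as 1 list of peaks with chromosome, start and end. CASAVA 1.8.2, Bowtie2, SAMtools and MACS2 and the build mm10 were used, per the submitters' processing notes. How peaks were thresholded and filtered, whether the inputs were used and whether replicates were pooled is not given in the sources used here. With no score or depth in it, the list gives no measure of precision, and a peak counts the same whether strong or weak.

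Peaks were set against gene spans of the RefSeq table of GRCm38.p6, which gives no exons or strand, so exons, introns and UTRs could not be separated. Strand came from the promoter table. Genes starting in the first 3 Mb (442, among them genes of unplaced scaffolds) and genes on chromosomes without a peak (341) were left out, and so were peaks on unplaced contigs. An overlap of 1 bp counted, and positions are printed 1-based. No test was run, because the members and lists were chosen with earlier results of these data known. The rule for named genes took every member, and from each list the genes overlapped by a peak, up to 4 with most peaks, and, chosen after their values were seen, those without one. Alternatives were flanks of 50 and 200 kb, the wider 50% of the peaks, peak centres, and leaving out dense windows. The distance code was tested on simulated peaks. Python 3.11.15, numpy 2.4.6, pandas 2.3.3 and matplotlib 3.10.9 were used.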

Additional observations from a re-analysis of the deposited data

How the results depend on the processing

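Using the wider 50% of the peaks changed the most: 4 members then had a peak within 100 kb, 1 was overlapped, 3 were the nearest protein-coding gene of a peak, 5 peaks remained, and the median distance to a peak was 104 kb. Over all protein-coding genes the share with a peak within 100 kb also fell with these peaks, from 52.8% to 32.2%. The narrower 50%, chosen after the data were seen, gave 8 members with a peak. A flank of 200 kb raised the number of peaks to 28, and a flank of 50 kb gave 13 peaks at 9 members, without Itga4. Taking all integrin subunit genes gave 20 with a peak. Peak centres and leaving out 1-Mb windows of 20 or more peaks kept each of these counts, and peak centres moved the median distance to 4.46 kb. For single members, the peak count moved by over 1.5 times at 7 of 10 with the wider 50%, at 7 with 200 kb and at 2 with 50 kb. No paired analysis was possible because the peak list carries no value per replicate, and leaving out a replicate was not run for the same reason.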

Other observations

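Integrin subunits of leukocytes, grouped after their values were seen, are expressed mainly in blood cells. Of these 7 genes (Itgal, Itgam, Itgax, Itgad, Itgae, Itgb2 and Itgb7), 5 had a peak within 100 kb, against 52.8% of all protein-coding genes, 0 were overlapped by one, against 12.6%, and 0 were the nearest protein-coding gene of one, against 22.1%. No difference from those shares was tested. Itgax and Itgad, neighbours on chromosome 7, shared 2 peaks, so these genes do not count as separate loci. The alpha genes outside the set are those left after Itga genes with peaks had been picked, and the same shares over all genes apply. Among these 9, 5 had a peak within 100 kb and 0 were overlapped or nearest. Of the 7 beta genes outside the set, 5 had a peak, 2 were overlapped and 3 were nearest. Because the alpha genes were split by that choice, nothing is read from this contrast.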
